A study of Homo sapiens with 12 samples.

Results

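The adhesion genes described here are 10 receptors and counter-receptors through which myeloma cells hold on to bone marrow stroma: the integrin chains ITGA4, ITGB1, ITGB7, ITGAL and ITGB2, the immunoglobulin-type ligands ICAM1, ICAM2, ICAM3 and VCAM1, and the hyaluronan receptor CD44. They were taken as every probe set that the array annotation pairs with one of these genes alone, which gave 37 of the 54675 probe sets and 10 of 19775 annotated genes. GFP-labelled human myeloma lines were sorted after 24 h, and their RNA was read on 12 Affymetrix U133 Plus 2.0 arrays. The groups were MM.1S after HS-5 coculture and MM.1S alone, MM.1R after HS-5 coculture and MM.1R alone, and INA-6 after HS-5 coculture and INA-6 alone, with 2 arrays in each of the 6 groups. HS-5 is a human bone marrow stromal line, without GFP, and the sorting was meant to remove its cells. How fully it did so is not known here, and the summed stromal markers given below read higher after coculture in each line. MM.1S and MM.1R come from 1 patient's myeloma and differ in their response to dexamethasone, and INA-6 needs interleukin 6 for its growth. All 6 groups carry GFP. Both arrays of a group are technical replicates per the series text, so an error given over them holds the spread between arrays of a group and no spread between cultures.

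An integrin is a pair of an alpha and a beta chain on the cell surface that binds matrix or another cell once it is switched to its active form. ITGA4 pairs with ITGB1 as VLA-4, the receptor for VCAM1 and fibronectin, or with ITGB7 as a receptor for the gut addressin MADCAM1. ITGAL pairs with ITGB2 as LFA-1, whose ligands are ICAM1, ICAM2 and ICAM3. CD44 binds hyaluronan, a sugar polymer of the marrow matrix. Plasma cells and myeloma cells are known to use VLA-4, LFA-1 and CD44 to bind marrow stroma, and stromal fibroblasts themselves carry ITGB1, ICAM1, VCAM1 and CD44.

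The direction of change after coculture differed between the lines. In both MM.1 lines ICAM1 and ITGB1 were higher after coculture, ICAM1 by 2.42 ± 0.29 in MM.1S and by 3.11 ± 0.29 in MM.1R, and ITGB1 by 2.03 ± 0.17 in MM.1S and by 1.57 ± 0.17 in MM.1R (log2 difference of intensity + 5, ± SE of the 12-array fit). ITGB7 and CD44 also rose in MM.1S. In INA-6 no member rose on its leading probe set, and ITGB7, CD44, ITGAL, ICAM2 and ITGB2 fell, ITGB2 to values below the array median. The falls of ITGAL and ICAM2 were seen on their leading probe sets only. VCAM1 lay below the median of its array on all 12 arrays. Each gene is led by the probe set whose mean over the 12 arrays was highest. Levels are compared between groups within 1 probe set and not between genes, since probe sets differ in how strongly they bind.

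**Figure D1:**
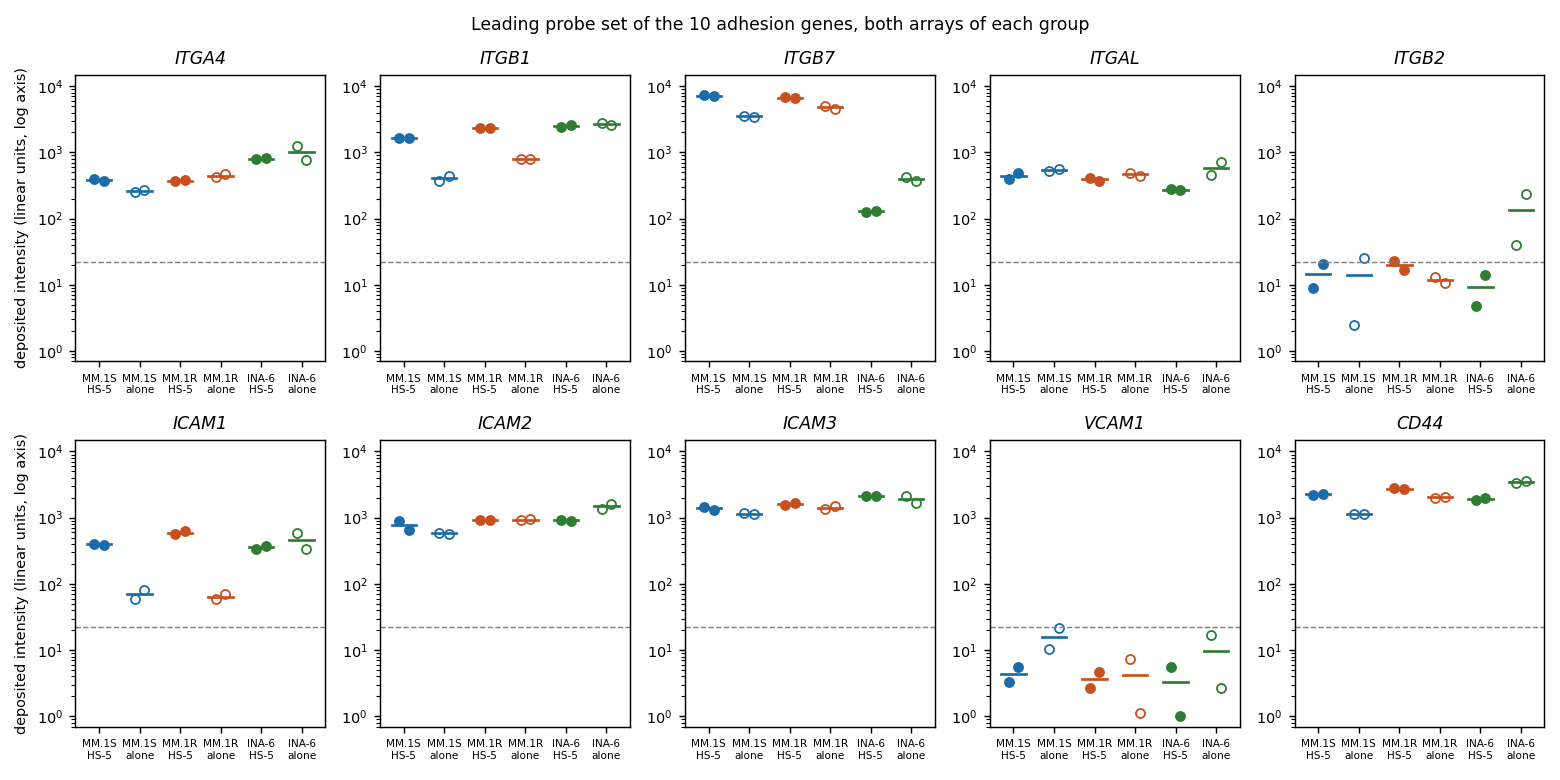
Deposited intensity (linear units, log axis) of the leading probe set of each of the 10 genes. Points are single arrays, filled after HS-5 coculture and open for cells alone, bars are group means, and the dashed line marks the mean of the array medians, which lay between 19.78 and 24.09. For ICAM1 the 4 coculture arrays of the MM.1 lines read 390.3 to 624, above the 58.4 to 82.1 of the same lines alone, and VCAM1 reads 1.0 to 21.3 on all 12 arrays.

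Promoter sequence is shown for 5 of the genes: ICAM1 and ITGB1, which moved together in the MM.1 lines, ITGB7 and CD44, which moved in opposite directions in MM.1S and INA-6, and VCAM1, which stayed near background. The sequences are RefSeq's on build GRCh38.p14 and run 5′ to 3′ on the gene's strand, from 250 bases before the annotated start to 50 after it. For 7 of the 10 genes an entry was matched by symbol. Capitals mark matches to the motifs searched.
ICAM1, chr19:10270870-10271169, plus strand: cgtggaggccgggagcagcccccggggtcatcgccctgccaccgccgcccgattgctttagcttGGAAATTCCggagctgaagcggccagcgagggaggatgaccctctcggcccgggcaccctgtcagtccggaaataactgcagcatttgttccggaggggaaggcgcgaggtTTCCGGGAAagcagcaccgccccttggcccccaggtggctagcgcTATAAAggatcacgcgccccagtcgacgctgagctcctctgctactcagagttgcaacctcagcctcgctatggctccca
VCAM1, chr1:100719492-100719791, plus strand: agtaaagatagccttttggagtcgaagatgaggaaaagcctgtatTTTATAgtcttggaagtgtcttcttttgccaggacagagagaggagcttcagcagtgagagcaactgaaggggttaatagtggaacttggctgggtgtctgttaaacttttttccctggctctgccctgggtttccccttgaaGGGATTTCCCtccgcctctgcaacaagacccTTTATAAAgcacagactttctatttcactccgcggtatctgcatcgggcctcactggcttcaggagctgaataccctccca
ITGB1, chr10:32958181-32958480, minus strand: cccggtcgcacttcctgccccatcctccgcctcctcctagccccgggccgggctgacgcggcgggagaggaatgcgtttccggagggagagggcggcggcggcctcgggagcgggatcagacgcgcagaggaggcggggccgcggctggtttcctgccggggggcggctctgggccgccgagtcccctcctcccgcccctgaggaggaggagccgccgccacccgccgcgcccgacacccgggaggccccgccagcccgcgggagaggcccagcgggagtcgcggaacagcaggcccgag
ITGB7, chr12:53207202-53207501, minus strand: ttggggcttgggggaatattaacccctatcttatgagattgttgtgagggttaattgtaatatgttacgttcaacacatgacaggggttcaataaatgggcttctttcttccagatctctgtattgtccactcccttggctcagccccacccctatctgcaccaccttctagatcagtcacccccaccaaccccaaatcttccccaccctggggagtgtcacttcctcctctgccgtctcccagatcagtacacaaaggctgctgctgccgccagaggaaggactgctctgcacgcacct
CD44, chr11:35138921-35139220, plus strand: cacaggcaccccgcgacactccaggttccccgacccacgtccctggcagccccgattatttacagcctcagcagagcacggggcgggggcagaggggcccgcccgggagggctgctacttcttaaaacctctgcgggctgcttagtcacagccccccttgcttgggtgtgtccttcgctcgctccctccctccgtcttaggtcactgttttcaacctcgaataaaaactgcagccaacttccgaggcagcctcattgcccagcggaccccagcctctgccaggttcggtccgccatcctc

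The motifs, chosen after the sequences were seen, were GGANNTNCC for NF-kB, TTCNNNGAA for STAT factors, TGANTCA for AP-1 and TATAAA for the TATA box, each searched on both strands. In the ICAM1 window GGANNTNCC matched at bases -186 to -178 on both strands, TTCNNNGAA at -75 to -67 and TATAAA at -30 to -25, counted from the start, and none of these overlapped another. In the VCAM1 window GGANNTNCC matched at -62 to -54 and at -61 to -53, which overlap, and TATAAA at -205 to -200, at -31 to -26 and at -29 to -24, the last 2 overlapping. The windows of ITGB7 and CD44 and the first of the 2 annotated ITGB1 starts, the one shown, held no match to these letters. Of all 35116 promoter windows of the same length, 16.1% held GGANNTNCC, 7.66% TTCNNNGAA, 7.71% TGANTCA and 11.5% TATAAA. Matched letters describe the windows and do not show binding.

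Across the whole table, 35664 probe sets were tested, those above the median of their array in at least 2 of the 12 arrays. Of the 37 probe sets of the adhesion genes 27 were tested, and 9 of the 10 leading ones, VCAM1 being left out. A probe set that is high in 1 group only can pass this filter through that group. Array medians lay between 19.78 and 24.09, and duplicates correlated across probe sets at 0.821 in INA-6 alone and at 0.929 to 0.982 in the other 5 groups.

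Signs of RNA quality and of stromal RNA moved with coculture, and their part in the results on adhesion genes was not tested. For the control gene ACTB the ratio of 3′ to 5′ signal, which is high where transcripts are shortened, was 5.10 ± 0.191 in MM.1S after coculture and 22.4 ± 0.456 in MM.1S alone (SD, n = 2 each). It was 5.21 ± 0.285 in MM.1R after coculture and 31.4 ± 1.16 in MM.1R alone, and 32 ± 0.531 in INA-6 after coculture and 5.51 ± 0.291 in INA-6 alone (SD, n = 2 each). Thus the group of each line in which more adhesion genes stood higher was the one with the lower ratio. The summed intensity of 10 defining markers of stromal cells (collagens, LUM, DCN, THY1 and PDGFRB) was 6745 to 6899.7 in MM.1S after coculture and 474 to 577 in MM.1S alone. It was 11889.8 to 12204 in MM.1R after coculture and 533 to 668 in MM.1R alone, and 5809 to 5952 in INA-6 after coculture and 829 to 2085 in INA-6 alone. The sum of the stromal markers thus read higher after coculture in each line, INA-6 included. The spike-in BioB, a bacterial control RNA, averaged 346 in MM.1S after coculture and 1667 alone, 399.9 in MM.1R after coculture and 529 alone, and 721 in INA-6 after coculture and 3329 alone (n = 2 each). Of 9 stromal markers tested, 6 rose in MM.1S, 6 rose in MM.1R, and 4 rose and 1 fell in INA-6. Of all probe sets 20.4%, 10.5% and 35.2% were higher and 8.98%, 3.48% and 12.5% lower. The median log2 difference of the 9 was 2.37, 3.59 and 0.42, beside 0.05, 0.02 and 0.40 over all probe sets. COL1A1 read 262 and 261 in INA-6 after coculture against 441 and 1817 alone. LUM read below 10 on all 12 arrays. The stromal cells themselves were not analysed here, and in sorted bulk cells the share of RNA from another cell type and the level per cell cannot be told apart.

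**Figure D2:**
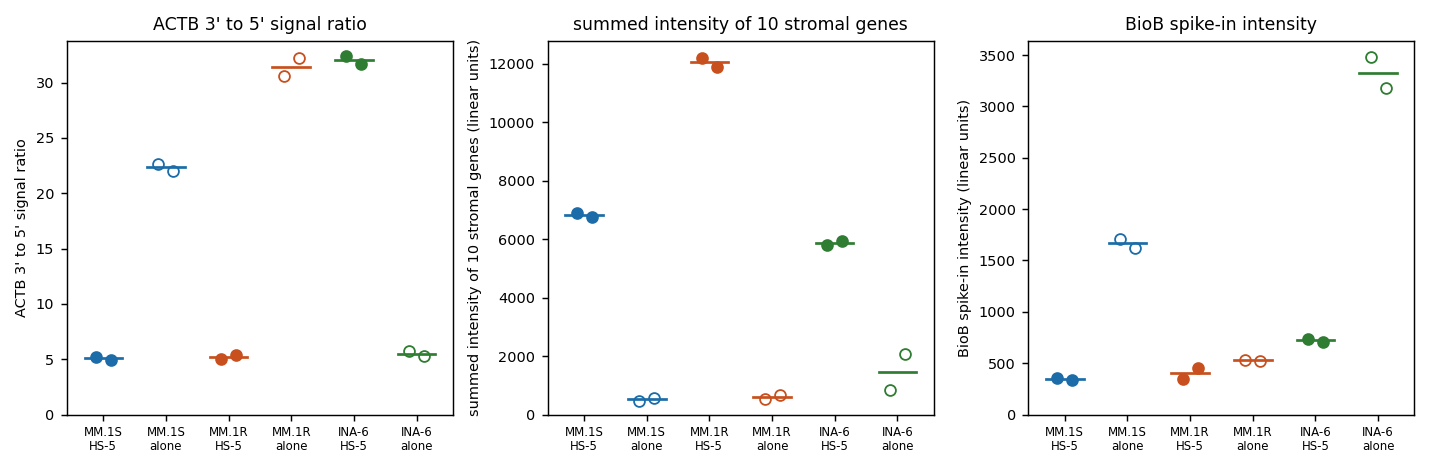
From left to right, the ACTB ratio of 3′ to 5′ signal, the summed intensity of 10 stromal markers and the intensity of the spike-in BioB, added to the samples before hybridisation, all on linear axes. Points are the 2 arrays of each group and bars their means. The ACTB ratio is 5.10 and 5.21 in the MM.1 lines after coculture against 22.4 and 31.4 alone, and 32 in INA-6 after coculture against 5.51 alone; the stromal sum is higher and BioB lower after coculture in each line.

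The array labels were checked against cell type markers. The plasma cell antigens SDC1 and TNFRSF17 stood well above the array medians on all 12 arrays, with lowest values of 863 and 1317. They are 2 of 12 listed genes of plasma and myeloma cells, and not all of the 12 stood above the median. On both arrays 1 listed gene lay below it in each MM.1S group and each INA-6 group. In MM.1R 2 did so after coculture and 0 alone. The list of plasma and myeloma cell genes also moved with coculture: of its 11 tested genes 8 rose and 0 fell in MM.1S, 3 rose and 0 fell in MM.1R, and 3 rose and 4 fell in INA-6, beside 20.4%, 10.5% and 35.2% of all probe sets higher and 8.98%, 3.48% and 12.5% lower. Its coculture effect was lower in INA-6 than in the MM.1 lines for 7 genes and higher for 0, with a median of -0.88, beside 0.19 over all probe sets, and the part of this shift in the results on adhesion genes was not tested. The leukocyte gene PTPRC read 14.2 to 50.2 in the MM.1 lines and 443 to 1196 in INA-6. Sums over 6 genes of T and NK cells were 47.8 to 591 and over 4 measured genes of myeloid cells 22.1 to 183.

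ITGA4, the alpha chain of VLA-4, was measured in each group and passed the test for coculture in none of the 3 lines. On its leading probe set (213416_at) it read 392 and 367 in MM.1S after coculture, against 248 and 271 in MM.1S alone. In MM.1R it read 367 and 384 after coculture, against 419 and 465 alone. In INA-6 it read 784 and 812 after coculture, against 1264 and 772 alone. The MM.1S groups did not overlap, with the coculture arrays higher, the MM.1R groups did not overlap, with the coculture arrays lower, and the INA-6 groups overlapped because the arrays of INA-6 alone lay far apart. The difference was 0.54 ± 0.24 in MM.1S (log2 ± SE, adjusted p = 0.135), -0.23 ± 0.24 in MM.1R (adjusted p = 0.655) and -0.31 ± 0.24 in INA-6 (adjusted p = 0.326). Under other processing the MM.1S difference ran from 0.27 to 0.60 and passed in 3 of 22 alternatives. That in INA-6 ran from -0.66 to 0.05 and passed in 2 of 21. In order of level, INA-6 alone and INA-6 after coculture came first with overlapping arrays, then MM.1R alone, then MM.1S and MM.1R after coculture with overlapping arrays, and MM.1S alone last. The other 2 tested probe sets stood above 0 in INA-6, at 0.74 (243366_s_at) and 0.81 (205885_s_at), passed in no line, and had their highest mean in INA-6 after coculture, so the direction in INA-6 differs between the probe sets of ITGA4.

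ITGB1, the beta chain of VLA-4 and of most matrix-binding integrins, rose after coculture in both MM.1 lines. On 211945_s_at it read 1676 and 1651 in MM.1S after coculture, against 369.6 and 438 in MM.1S alone. In MM.1R it read 2349 and 2359.6 after coculture, against 786 and 794 alone. In INA-6 it read 2423 and 2557 after coculture, against 2816 and 2572 alone. The MM.1 groups did not overlap, and after coculture both MM.1 lines lay closer to the INA-6 arrays than they did alone. The rise was 2.03 ± 0.17 in MM.1S (4.10-fold, adjusted p = 0.000115) and 1.57 ± 0.17 in MM.1R (2.97-fold, adjusted p = 0.000777). In INA-6 the difference was -0.11 ± 0.17 (adjusted p = 0.619, 95% interval -0.50 to 0.28). The 6 groups followed the order INA-6 alone, INA-6 after coculture, MM.1R after coculture, MM.1S after coculture, MM.1R alone and MM.1S alone, with no overlap between neighbours. On another probe set, 1553530_a_at, ITGB1 passed as lower in INA-6, at -1.42 (adjusted p = 0.0045). It read 182 and 238 after coculture there, against 645 and 494 alone. In INA-6 1553678_a_at stood at -1.63 and 215878_at at -1.96, and neither passed. The latter lay above the array median on 2 of the 12 arrays. It read 11.5 and 14.25 in INA-6 after coculture, against 11.7 and 281 alone, so its value there rests on 1 array.

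ITGB7, the beta chain that pairs with ITGA4 in gut-homing cells, has 1 probe set (205718_at) and moved in opposite directions in MM.1S and INA-6. It read 7296 and 7068 in MM.1S after coculture, against 3570.1 and 3424 in MM.1S alone. In MM.1R it read 6839 and 6519 after coculture, against 4992 and 4539.7 alone. In INA-6 it read 127 and 129.5 after coculture, against 427 and 366 alone. The arrays of INA-6 lay far below those of both MM.1 lines in either culture, and no 2 neighbouring groups overlapped. The rise in MM.1S was 1.04 ± 0.17 (2.05-fold, adjusted p = 0.00243), the difference in MM.1R 0.49 ± 0.17 (adjusted p = 0.103), and the fall in INA-6 -1.59 ± 0.17 (3.0-fold lower, adjusted p = 0.000161). After quantile normalization the MM.1S value was 0.01 (adjusted p = 0.972). The arrays of INA-6 alone contribute only to the spread used for MM.1R, and with either of them left out the MM.1R difference of 0.49 passed the test.

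ITGAL and ITGB2 form LFA-1. ITGAL (213475_s_at) read 280.2 and 269 in INA-6 after coculture, against 459.9 and 714 in INA-6 alone. In MM.1S it read 397 and 486 after coculture, against 527 and 553 alone, and in MM.1R 411 and 371 after coculture, against 493 and 443 alone. The coculture arrays were the lower ones in each line, and the ranges were separate in all 3. Only the fall in INA-6 passed the test, at -1.05 ± 0.24 (adjusted p = 0.00719), while the difference was -0.29 ± 0.24 in MM.1S (adjusted p = 0.414) and -0.26 ± 0.24 in MM.1R (adjusted p = 0.601). The second ITGAL probe set (1554240_a_at) went another way in MM.1S, with 452 and 451 after coculture against 98.1 and 132 alone, a rise of 1.94. It also stood above 0 in MM.1R, at 0.92 (adjusted p = 0.191), and in INA-6, at 0.39 (adjusted p = 0.449), with 134 and 154 after coculture against 178 and 64.7 alone. The probe sets of ITGAL therefore disagree on its direction in each of the 3 lines, and the fall in INA-6 was seen on the leading one only.

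ITGB2, the common beta chain of the leukocyte integrins, was near background in the MM.1 lines and in INA-6 after coculture. On 1555349_a_at it read 4.70 and 14.0 in INA-6 after coculture, against 39.7 and 232 in INA-6 alone. In MM.1S it read 9.08 and 20.4 after coculture against 2.51 and 25.3 alone, and in MM.1R 23.0 and 16.8 after coculture against 13.0 and 10.5 alone. It lay above the array median on 4 of the 12 arrays, including both of INA-6 alone. Both values of INA-6 after coculture lay below their array median, so the size of the fall is not a measured one. The fit gave -2.92 ± 0.86 for log2(intensity + 5) (adjusted p = 0.0225), which rested on replicate 2 of INA-6 alone, without which it was -1.72 (adjusted p = 0.129); without replicate 1 of INA-6 coculture it was -2.44 and did not pass either. The other 2 probe sets of ITGB2 read below the array median on all 12 arrays.

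ICAM1, a ligand of LFA-1 that inflammatory signals are known to induce, had the largest rise among the leading probe sets of the members in both MM.1 lines. On 202637_s_at it read 397 and 390.3 in MM.1S after coculture, against 58.8 and 82.1 in MM.1S alone. In MM.1R it read 563 and 624 after coculture, against 58.4 and 70.1 alone. In INA-6 it read 342 and 369.7 after coculture, against 591 and 335 alone. The MM.1 arrays alone were the lowest of the 12, and the arrays of INA-6 alone lay on both sides of those after coculture. The rise was 2.42 ± 0.29 in MM.1S (5.35-fold, adjusted p = 0.000494) and 3.11 ± 0.29 in MM.1R (8.66-fold, adjusted p = 0.000334), and the difference in INA-6 was -0.32 ± 0.29 (adjusted p = 0.390, 95% interval -0.98 to 0.34). Without replicate 2 of INA-6 alone the INA-6 value was -0.72 and passed the test, as it did after quantile normalization at -0.85. A second probe set (202638_s_at) read 288 and 296 in MM.1S after coculture against 31.6 and 25.6 alone, 427 and 426 in MM.1R after coculture against 41.4 and 31.9 alone, and 146 and 139.6 in INA-6 after coculture against 305 and 245 alone. On that probe set ICAM1 rose by 3.15 in MM.1S and 3.38 in MM.1R and fell by 0.91 in INA-6 on the log2 scale. The third (215485_s_at), at 65.5 to 136 on all arrays, passed the test in no line. Of the windows printed above, that of ICAM1 held matches to both GGANNTNCC and TTCNNNGAA. GGANNTNCC also matched in the window of VCAM1, which read near background, and in a window of ICAM3, which passed in no line. The part of these letters in the rise was not tested.

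ICAM2, a ligand of LFA-1 on leukocytes and endothelium, fell in INA-6 on its leading probe set (213620_s_at) and passed the test in neither MM.1 line. It read 939 and 897 in INA-6 after coculture, against 1365 and 1593 in INA-6 alone. In MM.1S it read 876 and 648 after coculture against 592 and 569 alone, and in MM.1R 927 and 927 after coculture against 923 and 948 alone. INA-6 alone thus held the 2 highest arrays of the 12, and MM.1R overlapped between cultures. The fall in INA-6 was -0.68 ± 0.20 (adjusted p = 0.0215), and it did not pass without either array of INA-6 coculture, at -0.71 without replicate 1 and -0.65 without replicate 2. The difference was 0.37 ± 0.20 in MM.1S (adjusted p = 0.203) and -0.01 ± 0.20 in MM.1R (adjusted p = 0.983). On the second probe set (204683_at) ICAM2 rose by 2.28 in MM.1S, with 290.5 and 294 after coculture against 41.8 and 74.7 alone.

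ICAM3, the LFA-1 ligand of resting leukocytes, has 1 probe set (204949_at) and passed the coculture test in no line. It read 1464 and 1326 in MM.1S after coculture, against 1165 and 1126 in MM.1S alone. In MM.1R it read 1532 and 1686 after coculture against 1353 and 1488 alone, and in INA-6 2112 and 2116 after coculture against 2109 and 1691 alone. The coculture arrays were the higher ones in each line, without overlap. The differences were 0.28 ± 0.18 in MM.1S (95% interval -0.14 to 0.70), 0.18 ± 0.18 in MM.1R (-0.24 to 0.60) and 0.16 ± 0.18 in INA-6 (-0.26 to 0.59). In MM.1S and MM.1R the sign turned under another scaling, to -0.13 and -0.14 at the lowest.

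VCAM1, the stromal ligand of VLA-4, has 1 probe set (203868_s_at). It read 3.24 and 5.46 in MM.1S after coculture against 10.4 and 21.3 alone, 2.64 and 4.66 in MM.1R after coculture against 7.21 and 1.13 alone, and 5.48 and 1.0 in INA-6 after coculture against 16.9 and 2.72 alone. All 12 values lay below the median of their array, so no fold or test is given.

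CD44, the hyaluronan receptor, rose in MM.1S and fell in INA-6 on its leading probe set (212063_at). It read 2220.4 and 2311 in MM.1S after coculture, against 1145 and 1151 in MM.1S alone. In MM.1R it read 2826 and 2667 after coculture, against 1990.4 and 2059 alone. In INA-6 it read 1825 and 2001 after coculture, against 3288 and 3575 alone. The groups of each line did not overlap, and the highest arrays were those of INA-6 alone. The rise in MM.1S was 0.98 ± 0.16 (1.97-fold, adjusted p = 0.00274), the difference in MM.1R 0.44 ± 0.16 (adjusted p = 0.127), and the fall in INA-6 -0.84 ± 0.16 (1.79-fold lower, adjusted p = 0.00346). Without either array of INA-6 alone the MM.1R difference of 0.44 passed, and the INA-6 fall did not pass when its 4 arrays were fitted by themselves (adjusted p = 0.113).

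CD44 is also the member with the most probe sets, 13, of which 10 were tested. Of these, 8 rose and 1 fell in MM.1S, 6 rose and 0 fell in MM.1R, and 1 rose and 7 fell in INA-6. Next to the leading one, 204489_s_at rose by 1.39 in MM.1S and 1.42 in MM.1R and fell by 0.70 in INA-6. The largest fall in INA-6, -2.53, was on 1557905_s_at, with 247 and 269 after coculture against 1647 and 1385 alone. The CD44 probe set that rose in INA-6 was 217523_at, at 1.20 (adjusted p = 0.0444), with 76.9 and 86.0 after coculture against 56.4 and 17.9 alone; it stood at 0.63 in MM.1S and -0.13 in MM.1R and passed in neither. The one that fell in MM.1S was 1565868_at, at -2.13, with -1.51 in MM.1R and 1.13 in INA-6, neither of which passed. Which CD44 isoforms these probe sets read is not given in the sources used here. ITGB1 has 7 probe sets, 4 of them tested, of which 2 rose in MM.1S, 3 rose in MM.1R and 1 fell in INA-6. In MM.1S the 4 had differences of -0.92 to 2.95. In MM.1R their differences lay between -0.31 and 4.76, and in INA-6 between -1.96 and -0.11. The value of 4.76 belongs to 1553678_a_at, which read 317 and 285 in MM.1R after coculture against 6.19 and 6.30 in MM.1R alone, where both arrays lay below their medians.

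**Figure D3:**
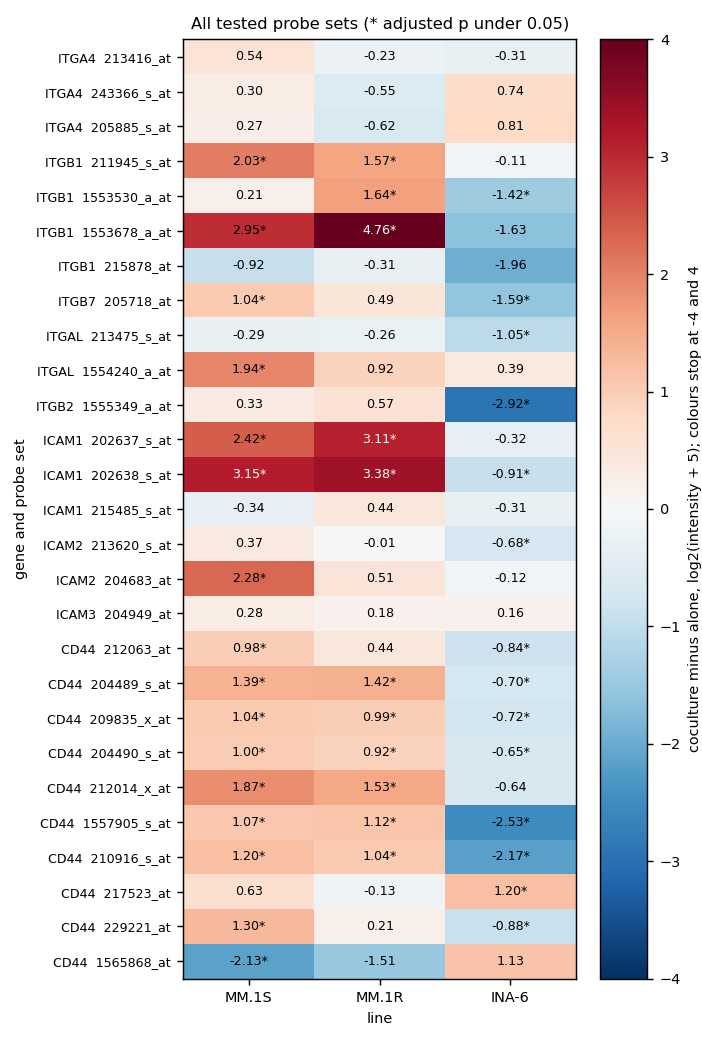
Log2 difference, coculture minus alone, for the 27 tested probe sets of the adhesion genes (rows) in the 3 lines (columns), with the value in each cell and a star where the adjusted p was under 0.05. Most ICAM1, ITGB1 and CD44 rows are red in MM.1S and MM.1R and blue in INA-6, with 1565868_at of CD44 the other way round and 217523_at of CD44 red in INA-6.

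Over the leading probe sets, 4 of 9 genes rose and 0 fell in MM.1S, where 29.3% of all tested probe sets passed (20.4% higher and 8.98% lower). In MM.1R 2 of 9 rose and 0 fell, where 14.0% of all passed (10.5% higher and 3.48% lower). In INA-6 0 of 9 rose and 5 fell, where 47.7% of all passed (35.2% higher and 12.5% lower). Leaving out 1 array moved these counts most in MM.1R and in INA-6, and the number of all probe sets passing moved as well. The share of calls that were higher depends on scaling: it was 69.4% in MM.1S, 75.1% in MM.1R and 73.7% in INA-6 as given, and 57.6%, 57.1% and 60.9% after quantile normalization. Over the 27 probe sets, 15 rose and 1 fell in MM.1S, 11 rose and 0 fell in MM.1R, and 1 rose and 13 fell in INA-6. Their median difference was 1.0 in MM.1S, 0.51 in MM.1R and -0.68 in INA-6, beside 0.05, 0.02 and 0.40 over all tested probe sets, or -0.06, -0.11 and 0.16 over all after quantile normalization. These medians are log2 differences and cover the members that passed the filter on low values.

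**Figure D4:**
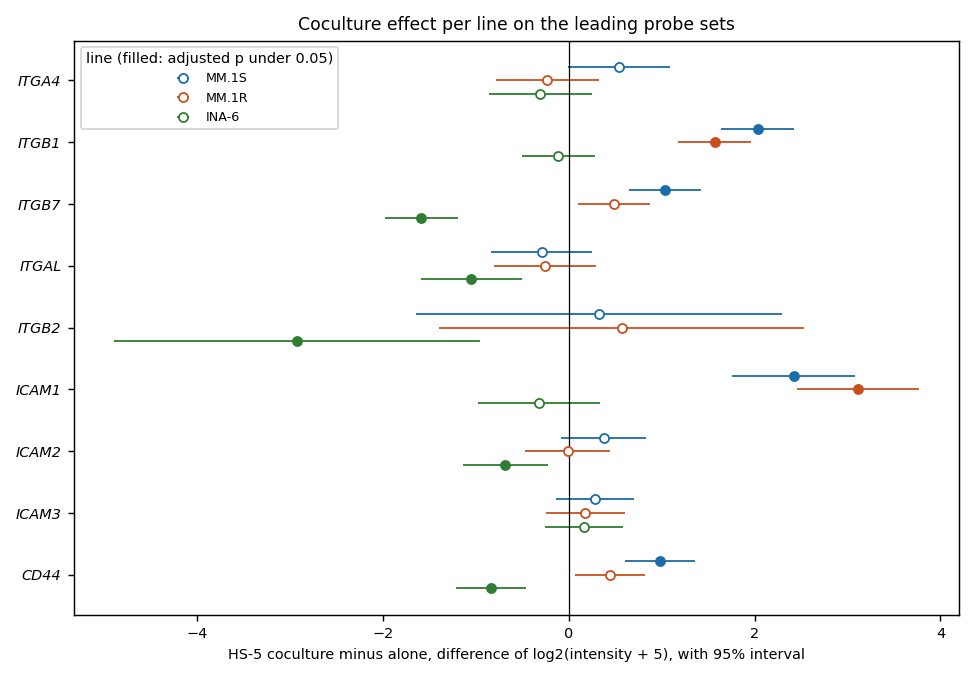
Difference of log2(intensity + 5), coculture minus alone, on the leading probe set of 9 adhesion genes, with the 95% interval of the 12-array fit, and filled points where the adjusted p was under 0.05. ICAM1 and ITGB1 lie to the right of 0 in MM.1S and MM.1R with filled points, at 2.42 and 3.11 and at 2.03 and 1.57, and no INA-6 point to the right of 0 is filled.

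No adhesion gene passed the test for an effect common to the lines. In limma's fit of 6 averages of duplicates, with line as a block, 0 of 9 leading probe sets passed, where 1.13% of all probe sets did (1.11% higher and 0.0168% lower), and 1 of 9, ICAM1, had an unadjusted p under 0.05. ICAM1 stood at 1.74 ± 0.68 (adjusted p = 0.234), ITGB1 at 1.16 ± 0.51 (adjusted p = 0.274), and CD44 and ITGB7 at 0.19 ± 0.47 and -0.02 ± 0.57. ICAM1 and ITGB1 passed when the INA-6 line was left out, at 2.77 and 1.80, and in a fit of the 12 unaveraged arrays, which counts duplicates as replicates. MM.1S and MM.1R share their origin, so the 3 lines are not fully independent.

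The difference between lines was tested directly. An F-test over the 3 coculture effects passed for 5 of 9 leading probe sets and 17 of 27 in all, beside 32.8% of all tested probe sets. The 5 were ITGB1, ITGB7, ICAM1, ICAM2 and CD44, and the call on ICAM2 (adjusted p = 0.0472) was lost in 14 of 20 alternatives. For INA-6 minus the average of the MM.1 lines, the effect was lower in 6 of 9 genes and higher in 0, beside 36.9% of all probe sets (24.1% higher and 12.8% lower). It was -3.09 ± 0.35 for ICAM1 (adjusted p = 0.000365), -2.35 ± 0.21 for ITGB7 (adjusted p = 0.000119), -1.91 ± 0.21 for ITGB1 (adjusted p = 0.000308) and -1.55 ± 0.20 for CD44 (adjusted p = 0.000697). These 4 passed in each alternative run for them, including leaving out any single array. ITGB2 (-3.37 ± 1.05, adjusted p = 0.0360) and ICAM2 (-0.86 ± 0.24, adjusted p = 0.0242) also passed but did not in 10 of 19 and 7 of 20 alternatives. The ITGB2 value rests on groups near background and was -2.17 without replicate 2 of INA-6 alone. ITGA4 (-0.46), ITGAL (-0.77) and ICAM3 (-0.07) did not pass. Over the 27 probe sets 17 were lower and 1 higher, with a median of -1.61, beside 0.19 over all probe sets. For MM.1R minus MM.1S, 0 of 9 genes passed in limma, beside 0.398% of all probe sets (0.0701% higher and 0.328% lower), with 1 of 9 (CD44) at an unadjusted p under 0.05, and ITGA4 and ITGB7 passed without either array of INA-6 alone, at -0.77 and -0.55.

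Cells cultured alone already differed between INA-6 and the MM.1 lines. On the leading probe sets 7 of 9 genes were higher in INA-6 alone and 1 was lower, beside 51.8% of all probe sets passing (19.0% higher and 32.8% lower). ICAM1 was 2.65 ± 0.25 higher (adjusted p = 4.65e-05), ITGB1 2.24 ± 0.15 higher (adjusted p = 7.15e-06), ITGA4 1.53 ± 0.21, CD44 1.17 ± 0.14, ICAM2 1.0 ± 0.17 and ICAM3 0.57 ± 0.16 higher on the log2 scale. ITGB7 was lower by -3.35 ± 0.15 (adjusted p = 1.25e-06). ITGB2 also passed as higher, with a fitted value of 2.7 ± 0.74, or 1.5 without replicate 2 of INA-6 alone, where it did not pass; as 3 of the 4 arrays of the MM.1 lines alone lay below their median, the size of this difference is not a measured one. ICAM3 did not pass without replicate 1 of MM.1R alone (0.53) or after quantile normalization (0.19). ITGAL, at 0.19 ± 0.21, did not pass. For ITGA4 the other tested probe sets differed: 205885_s_at was higher in INA-6 alone, at 1.05 (adjusted p = 0.0493), and 243366_s_at stood at -0.14 (adjusted p = 0.719). Over the 27 probe sets 19 were higher in INA-6 alone and 3 lower, and 217523_at (-1.38) and 1565868_at (-2.78) of CD44 were among the lower ones. The ACTB ratio was 5.51 in INA-6 alone against 22.4 in MM.1S alone and 31.4 in MM.1R alone, and its part in these differences was not tested.

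After coculture fewer members separated INA-6 from the MM.1 lines. ITGA4 was higher in INA-6 by 1.07 ± 0.21 (adjusted p = 0.00836) and ITGB7 lower by -5.70 ± 0.15 (adjusted p = 5.62e-07), and the other 7 did not pass, beside 19.6% of all probe sets (8.23% higher and 11.4% lower). ICAM1 stood at -0.44 ± 0.25, ITGB1 at 0.33 ± 0.15 and CD44 at -0.38 ± 0.14. Over the 27 probe sets 2 were higher and 3 lower. The lower ones included 1554240_a_at of ITGAL (-1.44) and 202638_s_at of ICAM1 (-1.28, adjusted p = 0.00155). On that second probe set ICAM1 thus stood lower in INA-6 after coculture, though its leading one did not pass. The call on ITGA4 was lost without either array of INA-6 coculture (1.09 without replicate 1 and 1.05 without replicate 2). The change of these gaps is the difference of coculture effects tested above, since it is the same contrast.

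**Figure D5:**
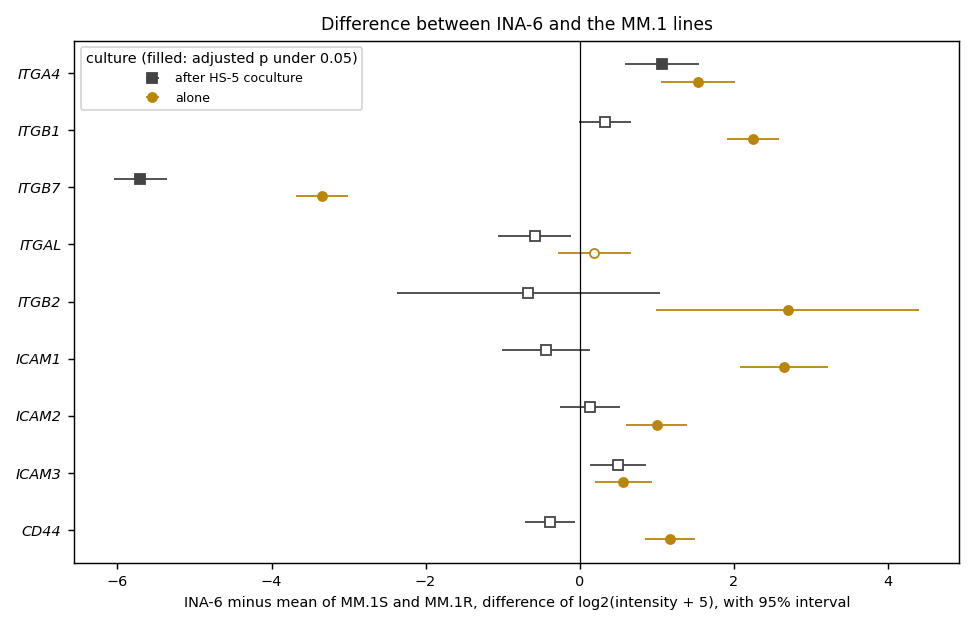
Difference of log2(intensity + 5), INA-6 minus the average of both MM.1 lines, after HS-5 coculture (squares) and alone (circles), with 95% intervals and filled symbols where the adjusted p was under 0.05. Alone, 7 genes are filled to the right of 0; after coculture 1 gene, ITGA4, is filled to the right, at 1.07, and ITGB7 lies at -5.70.

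Fewer of these genes separated MM.1R from MM.1S. Alone, ITGB1 was higher in MM.1R by 0.97 ± 0.17 (adjusted p = 0.0157) and CD44 by 0.82 ± 0.16 (adjusted p = 0.0243), 2 of 9 genes, beside 6.95% of all probe sets (5.81% higher and 1.14% lower). Of all calls 83.7% were higher, and 70.8% after quantile normalization. Over the 27 probe sets 4 were higher and 0 lower. For CD44 2 of the 10 tested passed. The largest of the 4 was 204683_at of ICAM2 (1.86, adjusted p = 0.0131), whose leading probe set did not pass (0.68, adjusted p = 0.0831). The other 3 tested probe sets of ITGB1 stood lower in MM.1R, at -0.76 (1553530_a_at), -0.78 (1553678_a_at) and -0.75 (215878_at), and passed in none, so the direction for ITGB1 rests on its leading probe set. On 1553678_a_at and 215878_at both arrays of MM.1R alone and 1 of MM.1S alone lay below their median, so the size of these differences is not a measured one. The calls on the leading probe sets of ITGB1 and CD44 were unsteady, as both were lost without replicate 1 of MM.1S alone or either array of MM.1R alone. After coculture 0 of 9 passed in limma, with 1 (ITGB1, 0.50 ± 0.17) at an unadjusted p under 0.05, beside 0.00% of all probe sets (1290 of 35664 at an unadjusted p under 0.05). After coculture ICAM1 differed by 0.58 between MM.1R and MM.1S with a 95% interval of -0.07 to 1.24, and ITGA4 by -0.01 with an interval of -0.57 to 0.54.

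The patterns most like those of the members over the 12 arrays are given by Pearson's r between log2 values, as a description, with no p, since duplicates of 6 groups make up the points. They are given for the 5 members with the largest spread over the arrays, as 0 members passed the common test. ITGB7 was most like SCNN1B, a sodium channel subunit (r = 0.985), IL6R, the interleukin 6 receptor (r = 0.983) and MAF, a transcription factor (r = 0.983). MAF read 2856 to 5025 in the MM.1 lines and 7.52 to 28.2 in INA-6, a separation of the lines like that of ITGB7. ICAM1 was most like CD151, a tetraspanin (r = 0.981), TIMP1, an inhibitor of metalloproteinases (r = 0.978), and ADGRE5, an adhesion receptor (r = 0.974). TIMP1 read 1039.9 and 1063 in MM.1S after coculture against 30.1 and 23.1 alone, and 1595 and 1562 in INA-6 after coculture against 1223 and 1345 alone. ITGB1 was most like GPX1, a peroxidase (r = 0.993), ANXA2, a membrane-binding annexin (r = 0.993), and TMEM14C (r = 0.991). ITGA4 was most like MIR1244-3, SLC38A1 and SLC16A14 (r = 0.967 to 0.982), and ITGB2, near background, like TBC1D29P, LINC00658 and KRT14 (r = 0.938 to 0.949).

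Other genes of adhesion were described from lists. The common fit called 1.11% of all probe sets higher and 0.0168% lower, so a count of 0 there does not set a list apart. Of 18 other integrin chains tested, 1 rose in the common fit and 0 fell: ITGA2, a collagen-binding alpha chain that pairs with ITGB1, by 3.87 ± 0.53 (adjusted p = 0.0328), with 3.70 in MM.1S, 5.18 in MM.1R and 2.73 in INA-6. Per line 4 rose and 3 fell in MM.1S, 4 rose and 2 fell in MM.1R, and 3 rose and 2 fell in INA-6, where of all probe sets 20.4%, 10.5% and 35.2% were higher and 8.98%, 3.48% and 12.5% lower. Of 13 integrin ligands and counter-receptors, 2 rose in the common fit, the matrix proteins TNC (5.31 ± 0.56) and FN1 (4.91 ± 0.40), and 0 fell. FN1 rose by 4.42 in MM.1S, 5.00 in MM.1R and 5.30 in INA-6, so this ligand of VLA-4 read higher in each line, and it is also on the list of stromal markers. Of that list's 25 tested genes 16 rose in MM.1S, 17 in MM.1R and 13 in INA-6, with 1 lower in INA-6, beside 20.4%, 10.5% and 35.2% of all probe sets higher.

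Of 26 genes of integrin activation and adhesion complexes, ACTN1, an actin crosslinker, rose in the common fit by 4.09 ± 0.38 and 0 fell (1.11% and 0.0168% over all). In MM.1S 11 rose and 0 fell, in MM.1R 6 rose and 0 fell, and in INA-6 15 rose and 1 fell, beside 20.4%, 10.5% and 35.2% of all probe sets higher. In this list the difference of INA-6 from the MM.1 lines was higher in 8 and lower in 1 (24.1% and 12.8% over all), with a median of 0.39, beside 0.19 over all probe sets. The largest were PTK2B, a focal adhesion kinase of blood cells (4.31), SHARPIN, an integrin inhibitor (2.41), and CYTH1, a regulator of LFA-1 (2.35). Among 9 genes of CD44 and hyaluronan binding 0 passed the common test in limma, beside 1.13% of all probe sets. The largest values there were those of the hyaluronan synthases HAS2 (2.7 ± 0.47, adjusted p = 0.0593) and HAS3 (0.79) and the membrane linker EZR (0.77). Per line 7 of the 9 rose in MM.1S, 4 in MM.1R and 2 in INA-6, and 0 fell, against the 20.4%, 10.5% and 35.2% of all probe sets that were higher.

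Among 8 sheddases 0 passed the common test in limma, beside 1.13% of all probe sets, with ADAM9 at 1.80, ADAM17 at 1.01 and ADAM15 at -0.82. ADAM15 fell by 2.65 in INA-6 on the log2 scale. Of 18 other adhesion molecules of myeloma and plasma cells, CD99 rose in the common fit by 3.32 ± 0.39 and 0 fell (1.11% and 0.0168% over all). Per line 9 rose and 2 fell in MM.1S, 7 rose and 0 fell in MM.1R, and 3 rose and 2 fell in INA-6 (20.4%, 10.5% and 35.2% of all probe sets were higher). The difference of INA-6 from the MM.1 lines was lower in 7 and higher in 1 of these 18, beside 12.8% lower and 24.1% higher over all, the largest being CD48, the ligand of CD244 (-3.69), and the tetraspanins CD81 (-2.82) and CD151 (-2.14). CD48 rose by 1.60 in MM.1S and 1.37 in MM.1R and fell by 2.21 in INA-6 on the log2 scale. That direction in each line is the one seen for ITGB7 and CD44 on their leading probe sets in MM.1S and INA-6.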

How the data were processed

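The authors deposited 1 table with an intensity for each of 54675 probe sets on each of the 12 arrays, on a linear scale. How they made it is not settled: the tool was MAS5 per the submitters' processing notes, while the series design text describes dChip and averaging of duplicates, and the table holds all 12 arrays separately. Neither versions nor a genome build are given in the sources used here.

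From these deposited intensities, log2(intensity + 5) was computed with no further scaling. The 62 control probe sets and 1 probe set with a missing value were left out, and 35664 probe sets above their array's median in at least 2 of the 12 arrays were tested. GEO's platform annotation names 1 gene for 41097 probe sets, several for 1801 and none for 11776; 41043 symbols were looked up by gene ID and 0 changed. Tests were two-sided in limma 3.58.1 (R 4.3.3), 1 per probe set, with Benjamini-Hochberg adjustment over all 35664 and a threshold of 0.05. The common effect was fitted on 6 averaged values with the line as block (2 residual degrees of freedom, prior 4.82). Effects per line, their differences and differences between lines came from 1 fit of the 12 arrays with a mean per group (6 residual degrees of freedom, prior 2.21), whose p-values measure only the spread between technical duplicates. Arrays give no counts, and their number limits the precision.

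The members, lists and tests were chosen with earlier results of these data known. All 10 genes are named, each led by its probe set with the highest mean. Similar genes were the 3 with the highest Pearson r per member, given for at most 5 members. In each list up to 3 genes are named per comparison, those with the largest changes that passed, otherwise the largest changes; ADAM15 and CD48 are also given per line. Same-numbered duplicates of different groups deviated together in some pairs of groups and apart in others, at r of -0.518 to 0.576 (above 0.1 in 6 of 15 pairs). The numbers were therefore not taken to pair the arrays, though these values cannot settle it. On simulated data of 35664 probe sets, the common fit recovered 0% of changes of log2 size 1, 2 and 4 with 0 false calls. Those data held an added effect per line, as wide as the observed effects, whose spread also holds that between arrays. The common fit of the deposited data called 402, so these 0% do not describe it. The MM.1S comparison, on simulated data without the added line effect, recovered 2.99%, 40.3% and 83.3% with 7 false calls. Alternatives covered the pseudocount, filter, scaling, averaging, shared spread, test per gene, replicate block and each array or line left out. Python 3.11.15 drew the figures with matplotlib 3.10.9.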

Additional observations from a re-analysis of the deposited data

Results flagged for a closer look

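For 6 genes the coculture effect in INA-6 differed from that in the MM.1 lines by limma's test of the difference itself (12-array fit, adjusted over 35664 probe sets). On the log2 scale the difference, INA-6 minus the mean of the MM.1 lines, was -1.91 for ITGB1, -2.35 for ITGB7, -3.37 for ITGB2, -3.09 for ICAM1, -0.86 for ICAM2 and -1.55 for CD44. The ITGB2 value rests on groups near background, was -2.17 without replicate 2 of INA-6 alone and lost its call in 10 of 19 alternatives, and ICAM2 lost its call in 7 of 20. Beside these 6 of 9 genes, 36.9% of all tested probe sets passed the same test. The spread behind it is that between technical duplicates. The ACTB ratio of 3′ to 5′ signal also moved the other way in INA-6, with 32 after coculture against 5.51 alone, beside 5.10 against 22.4 in MM.1S and 5.21 against 31.4 in MM.1R, and its part was not tested.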

How the results depend on the processing

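ICAM1 and ITGB1 in both MM.1 lines, CD44 in MM.1S, ITGB7 in INA-6 and the differences of INA-6 from the MM.1 lines for ICAM1, ITGB1, ITGB7 and CD44 kept their direction and call under each alternative run for them. Of 2095 alternative values of single genes, 1933 kept direction and call, 63 lost the call, 58 gained it, 41 changed sign without being called in either setting, and 0 called values changed sign. Duplicates are technical, so these alternatives say nothing of other cultures, and members near background, as ITGB2 and VCAM1, are limited by their signal. Causes of the changes below were not tested except where fewer arrays or genes entered.

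All counts are of probe sets or adhesion genes passing. The common test gave 253 probe sets with pseudocount 16, 183 after quantile normalization and 176 with no filter, in place of 402. It gave 10024 with the 12 arrays not averaged, 8938 with the replicate block added and 8150 without the INA-6 line, each with 2 adhesion genes in place of 0. For the difference of effects between MM.1R and MM.1S, the 142 became 44 with pseudocount 1, 874 with pseudocount 16, 421 after quantile normalization, 2 after median centring, 0 with no filter, 922 with 6 of 12 arrays above the median, 370 per gene, 0 with the replicate block and 3265, with 1 adhesion gene, without all INA-6 arrays. After coculture MM.1R against MM.1S gave 71 with pseudocount 16, 2 after quantile normalization and 294 on its 6 arrays, in place of 0. Alone the same pair gave 1533 and 1 gene with no filter, 1446 per gene, and 0 and 0 genes on its 6 arrays, in place of 2478 and 2. With 1 test per gene the counts were 4858 in MM.1S, 2417 in MM.1R, 7860 in INA-6, 5379 in the F-test, 5894 for the difference of INA-6, 8365 for INA-6 alone and 3502 for INA-6 after coculture. INA-6 gave 7074 and 1 gene on its own 4 arrays, MM.1R 9947 and 4 genes without INA-6 arrays, and INA-6 against MM.1 after coculture 14692 and 7 genes on its 6 arrays.

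With 1 array left out, the common count ran from 193, without replicate 1 of INA-6 alone, to 594, with 0 adhesion genes throughout. Probe sets and genes ran from 5954 to 16523 and 4 to 5 in MM.1S, 2025 to 11001 and 2 to 4 in MM.1R, 11764 to 22021 and 3 to 6 in INA-6, 7099 to 19998 and 4 to 8 in the F-test, 0 to 4770 and 0 to 2 for the MM.1R difference, and 8765 to 19926 and 4 to 7 for the INA-6 difference. Between lines they ran from 0 to 8265 and 0 to 5 for MM.1R alone, 16084 to 22452 and 7 to 9 for INA-6 alone, 0 to 143 and 0 to 0 for MM.1R after coculture, and 2864 to 12999 and 1 to 6 for INA-6 after coculture. The replicate block, for numbers not taken to pair the arrays, left the adhesion gene counts of the 12-array comparisons as they were (4 in MM.1S, 2 in MM.1R, 5 in INA-6), with ITGB2 gained and ICAM2 lost in the F-test.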
